A study of Mus musculus with 6 samples.

Results

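Apoa1, Apoc3, Apoa4 and Apoa5 are 4 apolipoprotein genes that lie next to each other on mouse chromosome 9, and their liver mRNA levels were examined here gene by gene and transcript by transcript. The 4 genes, with 14 annotated transcripts, were taken by name from a table of 35540 genes and 116748 transcripts. They were selected on the liver TPM of these 6 mice, in which Apoa4 was already known to be far lower in one genotype, so for these genes the differences between genotypes are given below as a description, without a test.

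The study asked how mice respond to loss of SURF4, a cargo receptor that helps secreted proteins leave the endoplasmic reticulum, in hepatocytes. Livers of 6 mice on the C57BL/6J background were sequenced for RNA, 3 of genotype Surf4 fl/fl Alb-Cre+ and 3 littermates of genotype Surf4 fl/fl Alb-Cre-. All carried both floxed Surf4 alleles, in which exon 2 is flanked by loxP sites, and in Alb-Cre+ mice a Cre transgene driven by the albumin promoter removes that exon in hepatocytes. No group carried Cre without the floxed allele, so an effect of Cre itself and of Surf4 deletion cannot be told apart. Either genotype comprised 1 female, numbered replicate 2, and males as replicates 1 and 3. The methods describe an overnight fast before tissue collection, and the age of these 6 mice is not given in the sources used here. Levels are in TPM, a transcript abundance corrected for transcript length that adds up to 1000000 in every mouse. Read numbers cannot be had from TPM, and the depth of the libraries is therefore unknown.

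Apolipoproteins are the protein part of lipoprotein particles, which carry triglyceride and cholesterol in blood. Apoa1 encodes the main structural protein of high-density lipoprotein. Apoa4 encodes a lipid-binding protein of triglyceride-rich particles and high-density lipoprotein that is made in the intestine and, during fasting or lipid loading, in the liver. Apoc3 encodes an inhibitor of lipoprotein lipase and of particle uptake, whereas Apoa5 encodes a low-abundance activator of triglyceride hydrolysis. The cluster is active in hepatocytes, where HNF4A, PPARA and the membrane-bound factor CREBH, encoded by Creb3l3, are known to act on its genes.

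Surf4, the targeted gene, was at 59.0, 71.8 and 54.3 TPM in Alb-Cre+ replicates 1, 2 and 3 and at 92.5, 94.5 and 92.5 TPM in the Alb-Cre- replicates. The groups did not overlap, with means of 61.7 ± 9.07 and 93.2 ± 1.17 TPM (SD, n = 3 each), but the limma test over all genes did not call Surf4 (adjusted p = 1.00, and 0.472 with the replicate number as a block). These values are sums over whole transcripts and do not isolate exon 2, and liver also holds cells in which the albumin promoter is silent. The hepatocyte genes Alb, Ttr, Trf, Ahsg, Fgb, Cps1, Hpx and Serpinc1 summed to between 61608 and 106115 TPM in Alb-Cre+ and between 81133 and 94783 TPM in Alb-Cre- livers.

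In GENCODE M21 (GRCm38), the cluster covers 43.3 kb. Apoa1 lies at chr9:46228580-46230466 on the plus strand, Apoc3 at chr9:46232933-46235636 on the minus strand, Apoa4 at chr9:46240696-46243459 on the plus strand and Apoa5 at chr9:46268633-46271919 on the plus strand. Apoa1 and Apoc3 are 2.47 kb apart, Apoc3 and Apoa4 5.06 kb, and Apoa4 and Apoa5 25.2 kb. RefSeq promoter sequences (GRCm38.p6) were found for 3 of the 4 genes and are shown because neighbouring genes of one cluster had unlike differences between genotypes. The bases before the first annotated start, plus strand, were chr9:46228380-46228579 for Apoa1, chr9:46240594-46240695 for Apoa4 and chr9:46268358-46268607 for Apoa5, with capitals marking the motifs that matched.
Apoa1: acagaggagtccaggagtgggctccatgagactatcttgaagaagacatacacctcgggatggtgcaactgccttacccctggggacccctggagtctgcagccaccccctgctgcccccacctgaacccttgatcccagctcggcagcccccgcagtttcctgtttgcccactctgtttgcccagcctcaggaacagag
Apoa4: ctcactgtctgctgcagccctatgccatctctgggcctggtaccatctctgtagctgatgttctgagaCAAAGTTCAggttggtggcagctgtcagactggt
Apoa5: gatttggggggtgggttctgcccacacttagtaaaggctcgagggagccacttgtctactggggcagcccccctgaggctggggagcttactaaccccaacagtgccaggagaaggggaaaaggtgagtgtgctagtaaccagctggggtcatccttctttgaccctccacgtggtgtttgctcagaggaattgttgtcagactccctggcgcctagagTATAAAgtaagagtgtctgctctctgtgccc
The 250 bases before each RefSeq start were searched on both strands for AGGTCA, a nuclear receptor half-site, CAAAGNNCA, the core of an HNF4-type repeat, TGACG, a cyclic AMP element half-site, and TATAAA, the TATA box. Apoa4 had 1 match, the HNF4-type core at bases 182 to 174 before its RefSeq start at 46240844, a motif held by 5.49% of all 32851 promoters of the same length. In GENCODE, Apoa4-201 starts earlier, at 46240696, so the match lies closer to that start. Past the 102 bases printed, the searched Apoa4 window lies in the first exon of that transcript. The Apoa1 window likewise runs past the GENCODE start of Apoa1, at 46228580, into its first exon. Apoa5 had 1 match, a TATA box at bases 31 to 26 before its start at 46268608, a motif held by 12.4% of promoters. AGGTCA (14.0% of promoters) and TGACG (17.8%) had no match in the 3 windows, and no matches overlapped. Each match is a description of the letters in these windows. The Apoa5 window precedes the transcripts Apoa5-202 and its RefSeq counterpart, while the most abundant Apoa5 transcript starts downstream of it, at 46269078.

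Apoa1 was the most abundant of the 4 mRNAs in every mouse and was lower in Alb-Cre+ livers. It was at 10222, 9779 and 8802 TPM in Alb-Cre+ replicates 1, 2 and 3 and at 17603, 20844 and 15764 TPM in the Alb-Cre- replicates. The lowest control was above the highest Alb-Cre+ mouse. Mean levels were 9601 ± 726 and 18070.5 ± 2572 TPM (SD, n = 3 each), 1.88-fold lower in Alb-Cre+ mice. On the log2(TPM + 0.1) scale, the difference was -0.91 (SE 0.24), and within the same-numbered pairs it was -0.78, -1.09 and -0.84. Among all genes of a liver ranked by TPM, Apoa1 stood at places 10, 14 and 18 in Alb-Cre+ mice and 5, 3 and 7 in controls. In a whole-liver sample, fewer cells making an mRNA and less of it per cell cannot be told apart. Set against Alb, the hepatocyte gene for albumin, in the same mouse, the Apoa1 level was 0.199 ± 0.0281 in Alb-Cre+ and 0.353 ± 0.0277 in Alb-Cre- mice, again without overlap.

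Apoa4 had the widest difference of the 4 genes and the widest spread between mice of one genotype. Its level was 224, 369 and 62.6 TPM in Alb-Cre+ replicates 1, 2 and 3 and 1161, 3344 and 1147 TPM in the Alb-Cre- replicates. The groups did not overlap, and replicate 2, the female, was highest in both. Mean levels were 219 ± 153 and 1884 ± 1265 TPM (SD, n = 3 each), 8.61-fold lower in Alb-Cre+ mice, with a log2 difference of -3.25 (SE 0.70). The pairs differed by 5.18-fold, 9.06-fold and 18.3-fold. Alb-Cre+ replicate 3 held the lowest level, and without it the log2 difference was -2.51. Within a genotype the highest mouse was 5.90 times the lowest in Alb-Cre+ and 2.92 times in Alb-Cre-, and the coefficients of variation were 70.1% and 67.1%. The female was at 2.57 times the mean of the males in Alb-Cre+ and 2.90 times in Alb-Cre-, with 1 female in each group, so sex was not tested. Apoa4 ranked between places 47 and 114 of all genes in the control livers and between 352 and 1283 in the Alb-Cre+ livers.

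Apoc3 was at nearly the same level in both genotypes. It was at 6270, 4991 and 5173 TPM in Alb-Cre+ replicates 1, 2 and 3 and at 6198, 5113 and 4989 TPM in the Alb-Cre- replicates. The groups overlapped, with means of 5478 ± 692 and 5433 ± 665 TPM (SD, n = 3 each). The log2 difference was 0.01 (SE 0.20), and the pairs differed by 0.017, -0.035 and 0.052. Replicate 1 was the highest mouse of both groups. Apoc3 stayed between places 25 and 36 of all genes in the 6 livers.

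Apoa5 was lower in the Alb-Cre+ mouse of every pair, but the groups overlapped. It was at 1460, 953 and 947 TPM in Alb-Cre+ replicates 1, 2 and 3 and at 1836, 1638 and 1018 TPM in the Alb-Cre- replicates. Alb-Cre+ replicate 1 was above Alb-Cre- replicate 3. Means were 1120 ± 294 and 1497 ± 427 TPM (SD, n = 3 each), and the log2 difference was -0.41 (SE 0.28). The pair differences were -0.33, -0.78 and -0.10, the female pair having the widest. The value depended on single mice, at -0.66 without Alb-Cre- replicate 3, -0.61 without Alb-Cre+ replicate 1 and -0.24 without Alb-Cre- replicate 1, and it was -0.22 in the males alone.

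**Figure D1:**
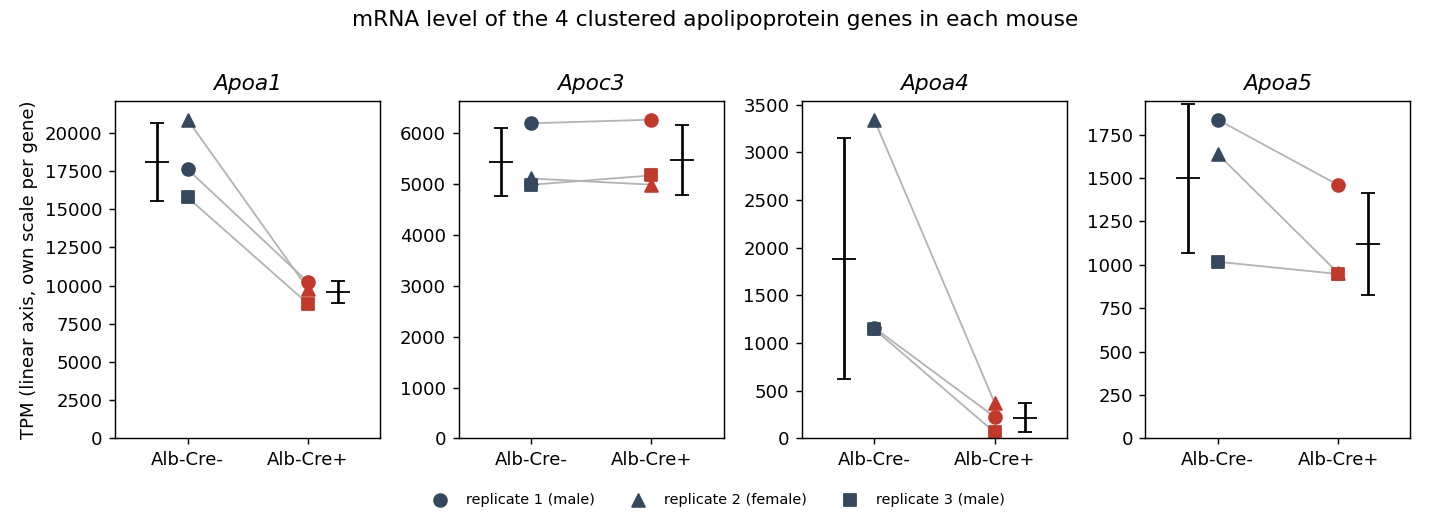
TPM of Apoa1, Apoc3, Apoa4 and Apoa5 in each mouse on linear axes that start at 0 and differ between genes, with grey lines joining same-numbered mice and black bars giving the mean ± SD of 3 mice. Apoa1 and Apoa4 have no overlap between genotypes, Apoc3 lines are nearly level, and Apoa5 is lower in the Alb-Cre+ mouse of 3 pairs with overlapping groups.

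The groups did not overlap for 2 of the 4 genes, Apoa1 and Apoa4, while 2.71% of all 14189 genes tested were without overlap in that direction; as the genes were chosen on these values, nothing is read from this count.

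The order of the 4 mRNAs was the same in all Alb-Cre+ mice and varied among the controls. In all mice Apoa1 was above Apoc3, and Apoc3 was above Apoa5. In the Alb-Cre+ livers Apoa4 was the lowest in every mouse, with 6.51, 2.58 and 15.1 times as much Apoa5 as Apoa4 in replicates 1, 2 and 3. In the controls the ratio of Apoa5 to Apoa4 was 1.58, 0.490 and 0.888, so that these neighbours in the order could not be ranked. Alb-Cre- replicate 1 thus had the same order as the Alb-Cre+ mice. The 4 genes together took 1.82%, 1.61% and 1.50% of all TPM in Alb-Cre+ replicates 1, 2 and 3, and 2.68%, 3.09% and 2.29% in the controls. Of their sum, Apoc3 made up 33.3% ± 2.02 in Alb-Cre+ and 20.5% ± 3.49 in Alb-Cre- mice, Apoa1 58.6% ± 2.27 and 67.3% ± 1.55, Apoa4 1.32% ± 0.941 and 6.71% ± 3.56, and Apoa5 6.76% ± 1.12 and 5.53% ± 1.22 (SD, n = 3 each). The share of Apoc3 was thus the larger one in Alb-Cre+ mice while its own level differed little.

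Ratios within a mouse do not depend on how the libraries were scaled. The ratio of Apoa1 to Apoc3 was 1.63, 1.96 and 1.70 in Alb-Cre+ replicates 1, 2 and 3 and 2.84, 4.08 and 3.16 in the controls. The ratio of Apoa4 to Apoc3 was 0.0358, 0.0740 and 0.0121 in Alb-Cre+ mice and 0.187, 0.654 and 0.230 in controls. Neither ratio overlapped between genotypes, which is again a description of the values the genes were selected on. The ratio of Apoa5 to Apoc3 was 0.233, 0.191 and 0.183 against 0.296, 0.320 and 0.204, and these ranges overlapped. Apoa4 was also lower against Apoa1, at 0.0223 ± 0.0153 in Alb-Cre+ and 0.0997 ± 0.0527 in Alb-Cre- mice. Against Apoa2, which encodes the second main protein of high-density lipoprotein and lies outside the cluster, Apoa1 was at 0.551 ± 0.0866 in Alb-Cre+ and 0.980 ± 0.134 in Alb-Cre- mice, without overlap.

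**Figure D2:**
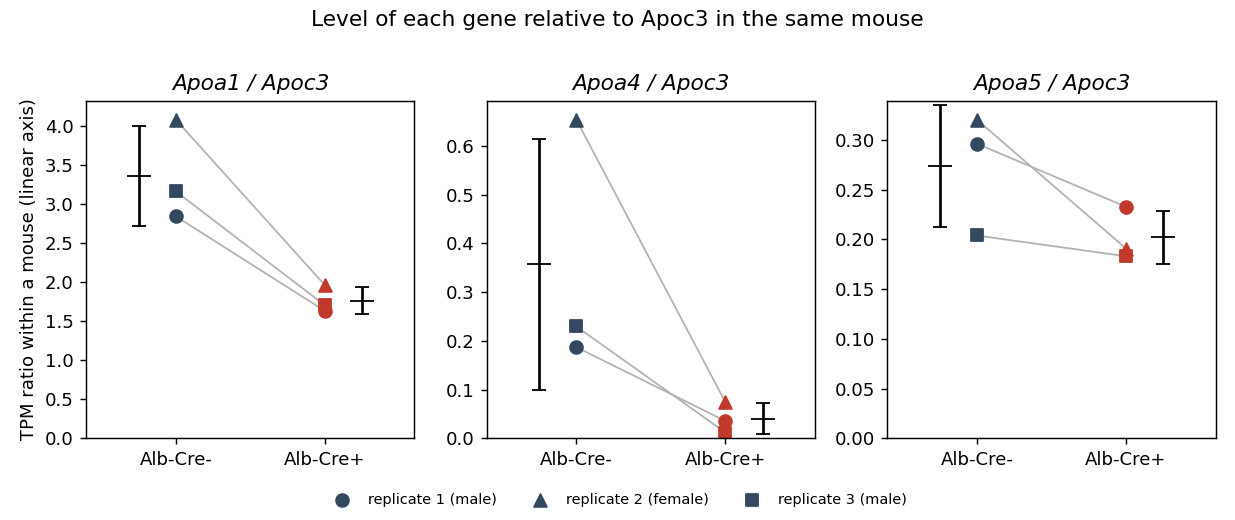
TPM of Apoa1, Apoa4 and Apoa5 divided by TPM of Apoc3 in the same mouse, on linear axes from 0, with lines joining same-numbered mice and bars giving the mean ± SD of 3 mice. The ratios of Apoa1 (1.63 to 1.96 against 2.84 to 4.08) and Apoa4 are separated by genotype, and that of Apoa5 is not.

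The main transcript of each gene had a difference close to that of the gene as a whole. Apoa1-201, with 4 exons, held between 99.5% and 99.7% of the Apoa1 level in each mouse. The minor Apoa1-202 was at 38.1 ± 10.7 TPM in Alb-Cre+ and 73.5 ± 24.8 TPM in Alb-Cre- mice, without overlap. Apoa4 has a single annotated transcript in the table, with 3 exons and 1815 bases. Of the 5 Apoc3 transcripts, Apoc3-201 held between 88.9% and 90.5%. Apoc3-203 was at 294 ± 51.1 and 277 ± 55.6 TPM, and the noncoding Apoc3-205 at 276 ± 18.0 and 267 ± 51.1 TPM. The remaining Apoc3-202 (17.9 and 18.3 TPM) and Apoc3-204 (9.79 and 8.60 TPM) were also alike on average, and all 5 overlapped between genotypes.

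Apoa5 had the most divided transcript pattern. Apoa5-201 held 61.1% ± 3.39 of the gene level in Alb-Cre+ and 60.6% ± 0.741 in Alb-Cre- mice, the 358-base Apoa5-206 held 27.4% ± 3.06 and 28.4% ± 2.32, and Apoa5-202 held 10.6% ± 0.877 and 10.1% ± 2.55 (SD, n = 3 each). Apoa5-201 and Apoa5-202 contain the same number of coding bases, 1104, and begin with different first exons. Mean levels in Alb-Cre+ and Alb-Cre- mice were 683 and 905 TPM for Apoa5-201, 310 and 422 TPM for Apoa5-206 and 118 and 157 TPM for Apoa5-202. Apoa5-203 (6.76 and 10.8 TPM) and Apoa5-205 (1.87 and 2.20 TPM) were minor, and 1 more transcript was under 1 TPM in every mouse. The genotypes overlapped for each Apoa5 transcript, and the shares of the 3 main ones differed by less than their spread.

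Other annotated genes share sequence with part of the cluster. Of the 1815 exon bases of Apoa4, 69.8% also lie in exons of the minus-strand genes Gm47528 (634 bases) and Gm10680 (632 bases), and 20.8% of Apoa5 exon bases lie in those of Gm47544. Exons of Apoa1 and Apoc3 overlap no other gene. Whether reads were counted by strand is not given in the sources used here, and without strand the reads of these partners cannot be told apart from those of Apoa4 and Apoa5. Gm47528, Gm10680 and Gm47544 were not among the genes summed by symbol, so no levels of these overlapping genes can be given.

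The genes on either side of the cluster were near the same level in both genotypes. Within 200 kb, 3 genes were tested by limma. Sik3, which encodes a salt-inducible kinase and ends 4.39 kb before Apoa1, was at 14.6 ± 1.05 TPM in Alb-Cre+ and 14.8 ± 1.01 TPM in Alb-Cre- mice (log2 difference -0.02, SE 0.14, 95% interval -0.34 to 0.29). Zpr1, a zinc finger gene 1.15 kb beyond Apoa5, was at 14.0 ± 2.63 and 12.5 ± 0.335 TPM (0.15, SE 0.17, -0.26 to 0.56). Bud13, a splicing factor gene, was at 2.22 ± 0.393 and 2.11 ± 0.488 TPM (0.08, SE 0.27, -0.55 to 0.71). None of these 3 passed the threshold, and 4931429L15Rik was listed at 0 in all mice.

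**Figure D3:**
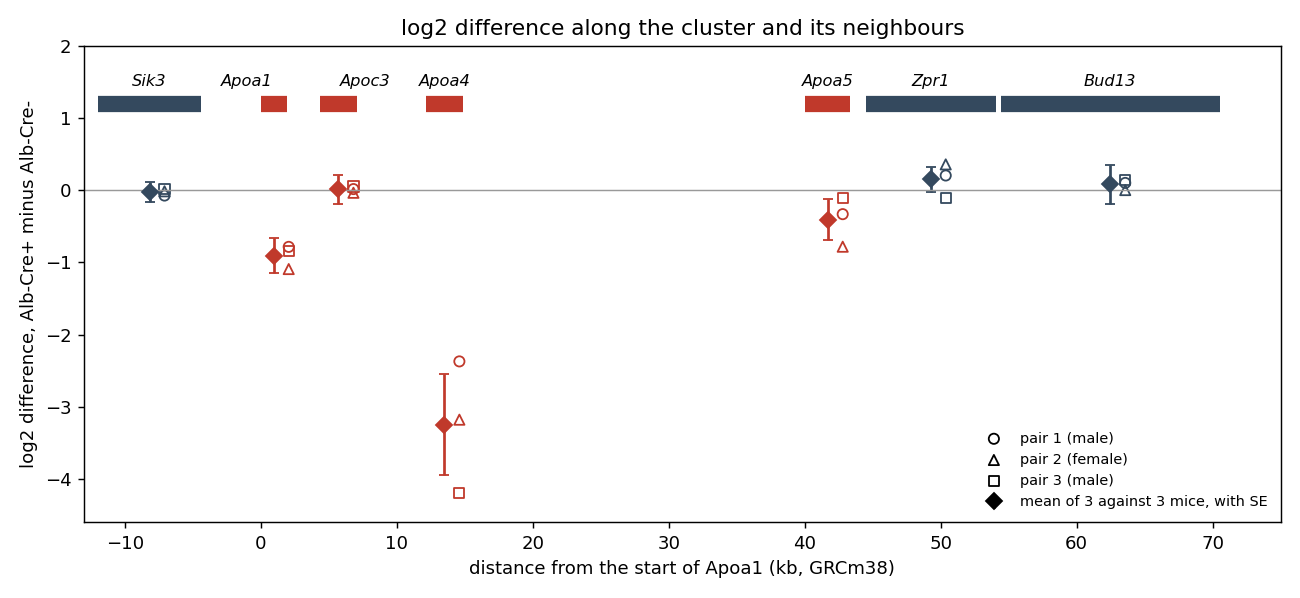
Genes of the cluster (red) and its tested neighbours (dark blue), drawn as bars by their distance in kb from the start of Apoa1, with Sik3 cut at the left edge. Below each bar stand the log2 difference in TPM between genotypes with its SE (diamonds) and the 3 pair differences (open symbols); Apoa1, Apoa4 and Apoa5 lie below 0, and Apoc3, Sik3, Zpr1 and Bud13 lie near it.

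Over the 6 mice, the log2 levels of Apoa1 and Apoa4 had a Pearson correlation of 0.945, and 0.787 once each genotype was centred on its own mean. Apoc3 went with Apoa5 (0.692, and 0.836 after centring) rather than with Apoa1 (0.019) or Apoa4 (-0.08). Apoa5 also went with Apoa1 (0.665, and 0.685 after centring) and, less closely, with Apoa4 (0.572, and 0.282 after centring). The 4 genes thus did not fall into separate pairs. Among the 10634 genes averaging 1 TPM or more, those most like Apoa4 were Eif4b (0.993), Apoh (0.990), Gm7334 (0.987), Commd6 (0.986) and Fads1 (0.984), and 118 genes were above 0.9. Several of these barely varied. Commd6, for example, ranged from 35.6 to 41.8 TPM, whereas Fads1, a fatty acid desaturase gene, ranged from 27.5 to 121 TPM. The genes most like Apoa5 were Imp3 (0.991), Med8 (0.988), Psmb2 (0.982), Cavin2 (0.975) and Psmd1 (0.972), with 72 genes above 0.9. These correlations describe 6 livers that share 2 genotypes and 3 pairs, and with so few points many genes reach such values.

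Genes known to act on the cluster or to work beside it were compared between genotypes across the whole table. Of 14189 genes tested by limma, 0 passed an adjusted p of 0.01 (0% of genes, with or without the replicate number as a block). At an unadjusted p below 0.05, 136 genes (0.958%) were lower and 114 (0.803%) higher in Alb-Cre+ mice, and 343 (2.42%) and 323 (2.28%) with the block. Groups did not overlap for 2.71% of genes in the lower and 2.18% in the higher direction. Of the 14189 genes, 1765 were lower and 1627 higher in each of the 3 pairs, so a shared direction of the pairs is common. The median log2 difference of all genes was -0.00.

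Regulators of the cluster showed no common direction. Of 40 tested transcription factors and cofactors, 22 had a higher and 18 a lower mean in Alb-Cre+ livers, with a median log2 difference of 0.02. Creb3l3, encoding CREBH, was at 245 ± 32.9 and 205 ± 19.6 TPM (log2 difference 0.26, SE 0.15), higher in 3 of 3 pairs. Hnf4a was at 291 ± 56.9 and 273 ± 37.2 TPM (0.08, SE 0.18). Ppara, the fasting-responsive lipid sensor, was at 64.7 ± 23.6 and 85.9 ± 19.4 TPM (-0.45, SE 0.29), lower in 3 of 3 pairs. These are mRNA levels, the activity of these 3 factors was not measured, and their part in the levels of the cluster was not tested.

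Unadjusted p was below 0.05 for 1 of the 40 regulators, in the higher direction, beside 0.803% of all genes (4 higher and 1 lower with the block, beside 2.28% and 2.42%). It was Onecut1, a hepatocyte factor, at 5.21 ± 1.70 and 2.64 ± 0.914 TPM (log2 difference 0.95, SE 0.37; limma adjusted p = 1.00 and 0.431 with the block). The next smallest p were those of Mlxipl, a carbohydrate-sensing factor (13.7 and 10.1 TPM), Ppargc1a, a fasting coactivator (3.00 and 7.48 TPM), the bile acid receptor Nr1h4 (97.7 and 80.4 TPM) and Nr2f2 (17.0 and 12.5 TPM). The groups did not overlap for 1 of the 40 regulators, Nr1h4, in the higher direction, beside 2.18% of all genes. The Ppargc1a difference came from replicates 2 and 3, whose pairs differed by -2.46 and -0.87, while pair 1 differed by 0.10.

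Among other lipoprotein genes, lower means were more frequent than higher ones. Of 48 tested apolipoprotein, assembly, lipolysis and uptake genes, 34 had a lower and 14 a higher mean in Alb-Cre+ mice, with a median of -0.12. Unadjusted p was below 0.05 in the lower direction for 5 of 48, beside 0.958% of all genes, and in the higher direction for 0. With the block these were 9 lower and 1 higher, beside 2.42% and 2.28%. The groups did not overlap, in the lower direction, for 10 of 48, beside 2.71% of all genes. The list was written with earlier results of these mice known, so these counts are a description.

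Fabp2, encoding an intestinal-type fatty acid-binding protein, had the smallest p of the list. It was at 49.0, 47.8 and 34.9 TPM in Alb-Cre+ replicates 1, 2 and 3 and at 144, 164 and 106 TPM in the controls, 3.14-fold lower on average without overlap. The log2 difference was -1.64 (SE 0.21; limma adjusted p = 0.456, and 0.0580 with the block), which did not pass the threshold. Scarb1, the receptor that takes up cholesterol from high-density lipoprotein, was at 79.2 ± 4.96 and 107 ± 12.9 TPM. Apom, a minor high-density lipoprotein component, was at 237 ± 7.60 and 314 ± 33.2 TPM. Apoc2, the activator of lipoprotein lipase, was at 430 ± 191 and 816 ± 155 TPM, and its neighbour Apoc4 at 2110 ± 178 and 2716 ± 139 TPM. For these 4 genes the groups did not overlap and each pair was lower, while the limma adjusted p was 1.00 (0.565 to 0.960 with the block).

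Among fasting-induced and PPARA-responsive genes, higher means were more frequent than lower ones. Of 41 tested, 27 had a higher and 14 a lower mean in Alb-Cre+ mice (median 0.22). Unadjusted p was below 0.05 for 0 higher and 1 lower, beside 0.803% and 0.958% of all genes, and with the block for 9 higher and 4 lower, beside 2.28% and 2.42%. Cpt1a, the entry enzyme of mitochondrial fatty acid oxidation, was at 156 ± 24.4 and 243 ± 48.9 TPM without overlap. Bdh1, a ketone body enzyme, was at 97.9 ± 27.2 and 181 ± 75.8 TPM. Cpt1a and Bdh1, named for their small p, thus went against the more frequent direction of the list. Angptl4, an inhibitor of lipoprotein lipase, was higher in Alb-Cre+ mice, at 149 ± 18.9 and 107 ± 31.0 TPM.

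Fgf21, a fasting hormone of the liver, was at 4.52, 16.9 and 2.57 TPM in Alb-Cre+ replicates 1, 2 and 3 and at 22.7, 70.4 and 9.19 TPM in the controls. As for Apoa4, the female was the highest mouse of each genotype, but here the groups overlapped. Its pair differences of -2.31, -2.06 and -1.80 were close to each other, and the limma adjusted p was 1.00 without and 0.0580 with the block. A shorter list of 11 genes known to respond to CREBH, which overlaps the lists above, had 9 lower and 2 higher means (median -0.40), with unadjusted p below 0.05 for 2 lower and 0 higher, beside 0.958% and 0.803% of all genes. With the block these were 5 lower and 1 higher, beside 2.42% and 2.28%. Its other genes with the smallest p were Acot4 (25.9 ± 7.55 and 17.2 ± 6.82 TPM, higher in each pair) and the lipid droplet gene Cidec (17.6 ± 15.8 and 79.6 ± 100 TPM, lower in each pair).

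**Figure D4:**
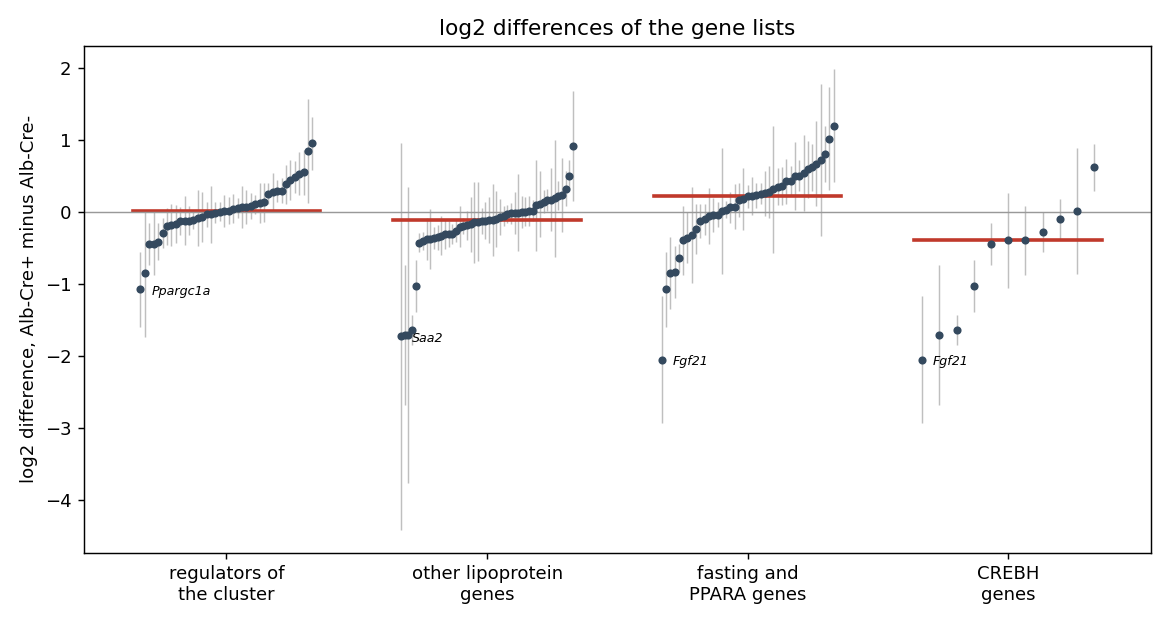
log2 difference in TPM between genotypes (vertical axis) of each tested regulator, lipoprotein, fasting and PPARA, and CREBH gene, ordered within its list, with SE bars and a red line at the list median (0.02, -0.12, 0.22 and -0.40); the lowest gene of each list is named. No gene passed an adjusted p of 0.01, and some genes are in more than 1 list.

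Markers of cells other than hepatocytes were also measured. Of 9 enterocyte genes, written down because intestine also makes Apoa4, the defining factors Cdx1 and Cdx2 were at 0 in all mice, and 6 of 9 were under 1 TPM in all. Several low genes had their highest level in Alb-Cre+ replicate 2. In that mouse Alpi was at 1.27, Krt20 at 0.818, Vil1 at 0.340 and Sis at 0.149 TPM, and Alpi was at 0 in all others. The enterocyte sum was 68.6 to 106 TPM in Alb-Cre+ and 137 to 217 TPM in Alb-Cre- mice, made up almost wholly of Fabp2 and Anpep. The lower sum lay in Fabp2, which is also in the lipoprotein and CREBH lists, with means of 43.9 and 138 TPM. Anpep was alike in both genotypes, at 41.1 and 40.3 TPM. For 8 of the 9 cell type lists the sums overlapped between genotypes. Kupffer cell genes summed to 162, 424 and 108 TPM in Alb-Cre+ replicates 1, 2 and 3. In the controls they summed to 177, 413 and 154 TPM. Replicate 2, in which Apoa4 was highest, thus had the highest Kupffer cell sum in both genotypes. The same held for the hepatocyte, enterocyte, sinusoidal endothelium, stellate and lymphocyte sums. It did not hold for the cholangiocyte, erythroid and exocrine pancreas sums. The part of cell composition in the level of Apoa4 was not tested. Genes at 1 TPM or more numbered 10059 to 11125 in Alb-Cre+ and 10230 to 10821 in Alb-Cre- livers.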

How the data were processed

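Liver RNA was sequenced from 6 mice. The authors deposited TPM per transcript and mouse. The methods name STAR and RSEM on GRCm38, whereas the deposited table is labelled as salmon output, and versions are not given in the sources used here. A second deposited table, with the authors' own DESeq2 comparison (fold changes and p-values), was not used. TPM were summed by gene symbol, leaving out 163 transcripts without a symbol (at most 0.0887% of TPM). On the log2(TPM + 0.1) scale, limma 3.58.1 (R 4.3.3) compared the genotypes over the 14189 genes that averaged 0.1 TPM or more, all 4 members included, with empirical Bayes variances, a variance trend and Benjamini-Hochberg adjustment, at a threshold of 0.01. Fold changes on this scale understate those of low genes. The script was tested on simulated data.

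The members and gene lists (regulators, lipoprotein, fasting and PPARA, CREBH, circadian clock and markers of 9 cell types) were chosen with earlier results of these data known. Named were the 4 members with transcripts of at least 1 TPM in any mouse, Surf4, Creb3l3, Hnf4a and Ppara, the 5 genes of smallest p of each list, tested neighbours within 50 kb, and the 5 genes most correlated with Apoa4 and with Apoa5; Saa2 in a plot, Apoa2 and the marker genes were added for their values or roles. A gene that the rule also names is not reported here. Same-numbered mice deviated together from their group means (correlations of 0.367, 0.588 and 0.370 over genes). Differently numbered males of the 2 genotypes correlated at 0.0914 and 0.171, and mice of unlike sex at -0.444 to -0.351. The labels state no pairing. Replicate 2 is the female in both groups, so sex and pairing cannot be told apart there. The replicate numbers were taken as pairs on this limited ground, and the fit with a replicate block is given where it moves a count. The alternatives were another pseudocount, filter, scaling, variance prior, threshold, sex as a covariate, the block, the main transcript and each mouse left out. All 14 member transcripts matched GENCODE M21 by identifier without version. The version number differed for each, for example 9 in the deposited values against 8 in M21 for Apoa1-201 and 7 against 6 for Apoa4-201. The lengths, exons, starts and overlaps given are those of M21 and may differ from the models used for the TPM.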

Additional observations from a re-analysis of the deposited data

Results flagged for a closer look

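For Apoc3 the female pair and the male pairs lay on opposite sides of 0. The log2 difference was -0.035 in the female pair and 0.017 and 0.052 in the male pairs. With 1 female pair, this difference between the sexes was not tested, and all 3 values were smaller than the SE of the Apoc3 difference.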

How the results depend on the processing

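Over the alternatives tried, the log2 difference ranged from -0.999 to -0.80 for Apoa1, from -0.09 to 0.11 for Apoc3, from -3.79 to -2.51 for Apoa4 and from -0.66 to -0.22 for Apoa5, so that only Apoc3 changed sign, and the extremes came from leaving out single mice or, for Apoa5, from the males alone (-0.22). With the replicate block the differences were equal and the SE were smaller, at 0.15, 0.12, 0.33 and 0.15 for Apoa1, Apoc3, Apoa4 and Apoa5. The number of genes past the threshold was 0 in limma with the replicate block and under all other alternatives except one: when each mouse was left out in turn, the count ranged from 0 to 1. Without Alb-Cre+ replicate 1 that gene was Gm10240, which was at 0 TPM in that mouse and in all controls and at 159 and 134 TPM in the other Alb-Cre+ mice; it is named after its values were seen. The counts of regulator, lipoprotein, fasting and PPARA, and neighbour genes past the threshold were 0 in each setting, but the test did not call Surf4 itself, so these zeros say nothing about stability. Without counts, the precision that depth gives low genes is unknown.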

Other observations

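Of 15 circadian clock genes, some of which govern fasting-responsive liver genes, 10 had a lower and 5 a higher mean in Alb-Cre+ mice (median log2 difference -0.06), with unadjusted p below 0.05 for 0 genes without and 2 lower genes with the replicate block, beside 2.42% of all genes in that direction with the block. Those with the smallest p were Nfil3 (7.36 ± 5.30 and 13.1 ± 2.66 TPM), Per3 (1.29 ± 1.16 and 0.477 ± 0.142 TPM), Arntl (2.72 ± 1.91 and 3.91 ± 1.37 TPM), Ciart (14.2 ± 8.28 and 24.4 ± 13.4 TPM) and Clock (5.86 ± 0.495 and 6.61 ± 0.171 TPM). The groups did not overlap for 1 of the 15 genes, Clock, in the lower direction, beside 2.71% of all genes. The log2 difference of Clock was small, at -0.17 (SE 0.16). The collection hour of each mouse is not given in the sources used here.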
